A study of Mus musculus with 8 samples.

Results

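The nuclear genes of the mitochondrial respiratory chain were examined for H3R17me2a, a mark in which Carm1, an arginine methyltransferase, has placed 2 methyl groups asymmetrically on arginine 17 of histone H3. Members were all protein-coding genes of the mouse RefSeq annotation (GRCm38.p6, the assembly of mm10) with symbols starting Nduf, Sdha, Sdhb, Sdhc, Sdhd, Uqcr, Cox4i, Cox5, Cox6, Cox7, Cox8 or Atp5. They numbered 100 of 21887 protein-coding genes on chromosomes 1 to 19, X and Y. A gene was called when a peak overlapped its span or the 5 kb on either side. Of the 100 genes, 10 were called in at least 1 library and 90 in none.

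All mice carried the Carm1fl/fl genotype and were injected on postnatal day 1. AAV-CRE, a virus carrying Cre recombinase, gave the knockout group, and AAV-GFP gave the control group, with 2 H3R17me2a ChIP libraries and 2 input libraries each. Cardiomyocyte nuclei were sorted from the hearts by the marker PCM1. The labels' protocols call the hearts mosaic, meaning that cardiomyocytes reached by the virus were mixed with others that were not. The sources used here do not give the promoter driving Cre, the age at harvest or the number of hearts per library. In nuclei pooled in this way, fewer marked cells and less mark per cell cannot be told apart. The labels do not state that replicates are separate animals, and the spread behind each p-value may be technical.

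The respiratory chain passes electrons from NADH and succinate to oxygen through complexes I to IV in the inner mitochondrial membrane, and complex V uses the resulting proton gradient to make ATP. Cardiomyocytes depend heavily on it, and the neonatal heart shifts from glycolysis towards oxidative metabolism after birth. Most subunits are encoded in the nucleus, and assembly factors help to build the complexes without being part of the finished enzyme. By symbol, the 100 genes comprised 41 of complex I (Nduf), 4 of complex II (Sdha to Sdhd), 8 of complex III (Uqcr), 18 of complex IV (Cox), 17 of complex V (Atp5) and 12 assembly factors (Ndufaf and Sdhaf). This grouping follows the symbols only: Ndufa4 is nowadays counted with complex IV, and Ndufa4l2 and Cox7a2l are paralogs of subunits.

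The peak lists of control 1, control 2, knockout 1 and knockout 2, named in this order wherever 4 values are given, held 12990, 8742, 4980 and 9531 peaks. A peak's median fragment number at the summit was 7 or 8 in each list. The lists do not give read totals, and a gene without a call is not shown to lack the mark. Carm1 itself had no peak within 5 kb in any list; the nearest lay 295, 252, 8.55 and 45.4 kb away. Peak positions do not measure the deletion. Of 12 cardiomyocyte marker genes, Ttn and Ryr2 (16.7%, beside 29.0% of all genes of the same span deciles) had a peak. Both were called in both controls and neither knockout, as were 1.18% of all protein-coding genes and 1.97% of those above the median span. The share of this class among genes of their own span decile is not given, so its rarity at that span is not known. The other 10 cardiomyocyte markers, among them Tnnt2, Tnni3, Myh6 and Pcm1, had no peak. Peaks in any library were called at 1 of 7 fibroblast markers (14.3%, beside 22.02% of genes of the same span deciles) and 4 of 7 endothelial markers (57.1%, beside 44.2%). They were called at 2 of 6 smooth muscle and pericyte markers (33.3%, beside 23.2%) and 3 of 6 macrophage and immune markers (beside 34.5%). Of these markers, Tek was called in both controls and knockout 2, Cd163 in control 2 and knockout 2, and the others in 1 library each. These calls of a histone mark are not expression values and do not test the sort.

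Called genes were found among assembly factors, complex I and complex IV. Of the 12 assembly factors, 4 were called: Ndufaf2, Ndufaf4, Ndufaf6 and Sdhaf3. Complex I had 4 of 41 called (Ndufa5, Ndufs1, Ndufs4 and Ndufs5) and complex IV 2 of 18 (Cox6b2 and Cox7b2). None of the 4 genes of complex II, the 8 of complex III or the 17 of complex V was called. The share for assembly factors was 33.3%, where all protein-coding genes weighted to the same span deciles had 17.8%. For complex I it was 9.76% against 11.5%, and for complex IV 11.1% against 10.8%. For complexes II, III and V that background was 16.8%, 10.4% and 9.57%. With so few genes in each role, these shares are descriptions and no role is set apart from the others.

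**Figure D1:**
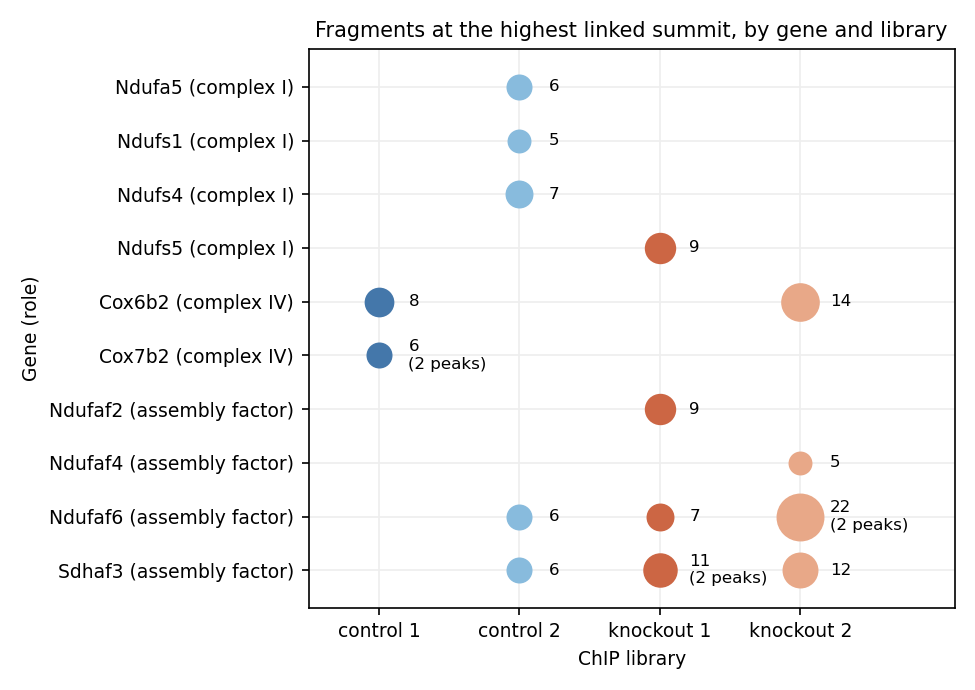
Fragments at the highest linked summit (number beside each dot, dot area in proportion) for the 10 called genes, by ChIP library on the horizontal axis; an empty position means no linked peak. Ndufaf6 and Sdhaf3 were called in control 2, knockout 1 and knockout 2, and 7 genes in a single library.

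In all, 18 peaks were linked to the 10 genes, of which 14 lay in a gene span and 4 in a flank. Their summits held 5 to 22 fragments (median 7), a number recovered from each peak's fold enrichment and p-value. The deposited fold enrichment, the authors' own value relative to the background of that library, ranged from 4.08 to 16.2 (median 5.50). Ranked by −log10 q within their own lists, the peaks ran from the 6.25th to the 99.1st percentile, with a median of 51.8, and 8 of 18 lay below the middle of their list. Only 5 of the 18 had a −log10 q of at least 5, which leaves 3 called members, Ndufaf6, Sdhaf3 and Cox6b2. The highest-ranked were single peaks of knockout 2 at Ndufaf6, Cox6b2 and Sdhaf3, at the 99.1st, 96.9th and 95.1st percentile. Exons and introns were not assigned, since gene spans alone were used.

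Ndufaf6 encodes an assembly factor of complex I. It spans 27.2 kb on chromosome 4 and had 4 peaks within 1.84 kb, at 11054120 to 11055955. Control 2 had 1 peak with 6 fragments and 4.76-fold enrichment, and knockout 1 had 1 with 7 fragments and 4.93-fold enrichment. In knockout 2, 2 peaks held 7 and 22 fragments, with 5.81- and 16.2-fold enrichment; the second was 769 bp wide and stood at the 99.1st percentile of its list. Control 1 had no call, its nearest peak lying 51.5 kb away. The peaks of control 2 and knockout 1 overlapped by 82 bp. The first knockout 2 peak began 39 bp beyond the knockout 1 peak, without overlap, and the second 213 bp further on. The 3 libraries thus called neighbouring stretches of the same gene, and no stretch was called in more than 2 of them.

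Sdhaf3 encodes a factor that helps mature the iron-sulfur subunit of complex II. It spans 83.7 kb on chromosome 6 and had 4 peaks in the same 3 libraries. Control 2 and knockout 2 shared a region at 6983320 to 6983677, with an overlap of 129 bp. It held 6 fragments (4.76-fold) in control 2 and 12 fragments (9.51-fold) in knockout 2, 27.7 and 27.4 kb downstream of the start. Knockout 1 had peaks elsewhere in the gene, 33.8 kb (11 fragments, 7.46-fold) and 71.0 kb (8 fragments, 5.60-fold) downstream of the start. Control 1 had none within 55.3 kb of the gene. The knockouts therefore had no region of Sdhaf3 in common.

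**Figure D2:**
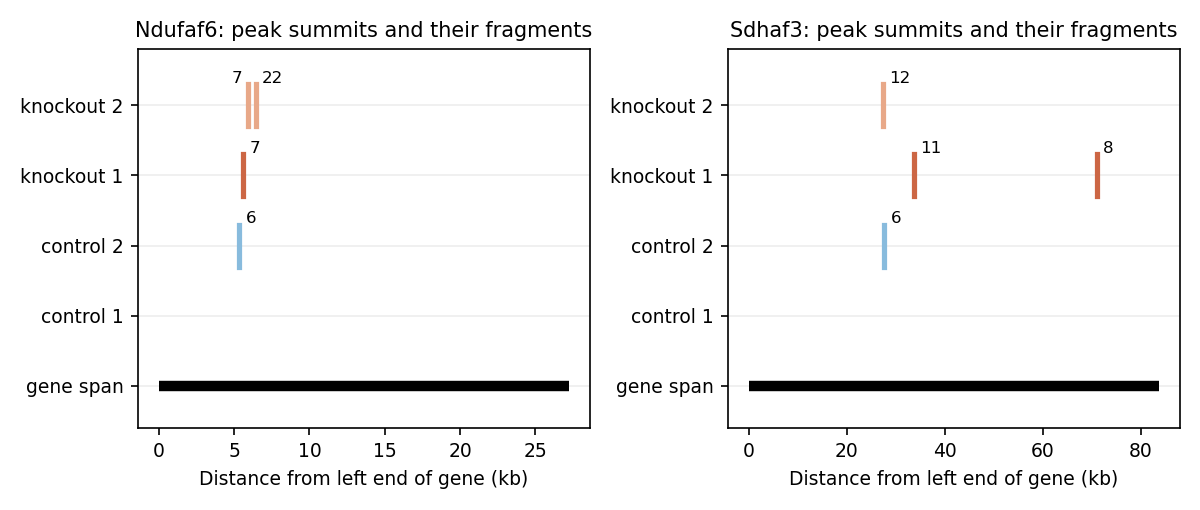
Summits of the peaks in Ndufaf6 and Sdhaf3, by distance in kb from the left end of each gene (black bar), with 1 row per library and the fragment number beside each summit. In Ndufaf6 the 4 summits lie 5.35 to 6.46 kb from the left end, and in Sdhaf3 they lie 27.4 to 71.0 kb from it.

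The other called assembly factors act on complex I and each had a peak in a single library. Ndufaf2 had a peak of 9 fragments (6.22-fold) in knockout 1, deep inside its 106 kb span and 45.5 kb downstream of the start. Ndufaf4 had a peak of 5 fragments (4.39-fold) in knockout 2, the weakest fragment number among the 18 together with Ndufs1. It lay in the flank, 3.36 kb upstream of the start by its summit, and was also within 5 kb of the long non-coding RNA gene Gm46848. The other 8 assembly factors (Ndufaf1, Ndufaf3, Ndufaf5, Ndufaf7, Ndufaf8, Sdhaf1, Sdhaf2 and Sdhaf4) had no linked peak.

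Complex I subunits were called in 1 library each. Ndufs1, the large iron-sulfur core subunit of the matrix arm, had a peak of 5 fragments (4.08-fold) in control 2, at the 6.25th percentile of its list and also within 5 kb of the long non-coding RNA gene Ino80dos. Ndufs4, an accessory subunit whose loss in mice causes a Leigh-like disease, had a peak of 7 fragments (5.44-fold) in control 2, 4.12 kb downstream of the start of its 100.3 kb span. In control 1 the nearest peak to Ndufs4 lay 5.76 kb from the gene, just beyond the 5 kb limit. Ndufa5, an accessory subunit of the matrix arm, had a peak of 6 fragments (4.76-fold) in control 2. Ndufs5, a small accessory subunit, had a peak of 9 fragments (5.55-fold) in knockout 1, with its summit 1.67 kb upstream of the start, the closest of all 4 flank peaks to a gene. In control 1 a peak lay 5.37 kb from Ndufs5, again just outside. Of the 4 called complex I genes, 3 were thus called in control 2 alone and 1 in knockout 1 alone, all on 5 to 9 fragments. Weighted to the span deciles of all members, 4.27% of all genes were called in control 2 and 2.55% in knockout 1. Those shares include genes also called in other libraries, and a share for 1 library alone is not given.

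Both called complex IV genes are isoforms known mainly from testis. Cox6b2 had a peak in control 1 (8 fragments, 6.45-fold) and in knockout 2 (14 fragments, 10.7-fold, at the 96.9th percentile of its list), overlapping by 110 bp in a region of chromosome 7 at 4756555 to 4756993. The summits lay 3.60 and 3.75 kb upstream of the start of Cox6b2, and the region is equally linked to the neighbouring gene Fam71e2. Cox7b2 had 2 peaks in control 1, with 6 fragments each, inside its 105 kb span. In knockout 2 the nearest peak to Cox7b2 lay 8.12 kb from the gene, outside the 5 kb limit. The isoforms typical of adult heart and muscle had no call: the nearest peak in any list lay 5.80 kb from Cox6a2, 57.4 kb from Cox8b and 191 kb from Cox7a1. Their widely expressed counterparts had none either, at 23.4 kb for Cox6a1, 150 kb for Cox8a and 128 kb for Cox7a2.

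The complexes without a call were described by their distance to the nearest peak of any list, whose median was 34.3 kb over all protein-coding genes and 52.8 kb over all genes without a call. For the members the median distance was 19.5 kb for complex II (8.78 to 178 kb), 66.2 kb for complex III (20.6 to 100.1 kb) and 61.3 kb for complex V (15.3 to 160 kb). Sdhc, a membrane anchor of succinate dehydrogenase, lay 8.78 kb from a peak in knockout 1, while Sdha, its flavoprotein subunit, lay 178 kb from the nearest peak in each of the 4 lists. In complex III, the core proteins Uqcrc1 and Uqcrc2 lay 69.8 and 100.1 kb from any peak, and the Rieske iron-sulfur protein gene Uqcrfs1 43.5 kb. In complex V, Atp5a1 and Atp5b, which encode the alpha and beta subunits of the catalytic head, lay 15.3 and 149 kb away. Just outside the 5 kb limit, Cox6a2 (5.80 kb), Sdhc (8.78 kb) and Ndufaf5 (9.90 kb) were the 3 uncalled genes within 10 kb of a peak. The mitochondrial genome encodes a further 13 subunit genes, which the symbol rule does not take. The lists held 0 peaks on any sequence outside chromosomes 1 to 19, X and Y, so their lack of calls there is no result about those genes.

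The share of called members was set against all protein-coding genes because these genes are short. Their median span was 7.34 kb against 17.2 kb over all genes, and 83 of 100 lay at or below the all-gene median. Over all protein-coding genes 23% were called in at least 1 library, against 10 of 100 members (95% Clopper-Pearson interval 4.90 to 17.6%). When all genes were weighted to the members' span deciles, 11.9% were called, close to the members' share. Among genes up to the median span, 4 of 83 members and 9.25% of all genes were called; above it, 6 of 17 members and 36.7% of all genes. The 4 members of the ninth decile (57.1 to 109 kb), Cox7b2, Ndufaf2, Ndufs4 and Sdhaf3, were all called, where 42.3% of all genes in that decile were. No member reached the longest decile, in which 75.1% of genes were called. Called members had a median span of 30.2 kb and uncalled members 7.15 kb; over all genes the medians were 58.8 and 12.7 kb. Intervals cover counting error only.

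**Figure D3:**
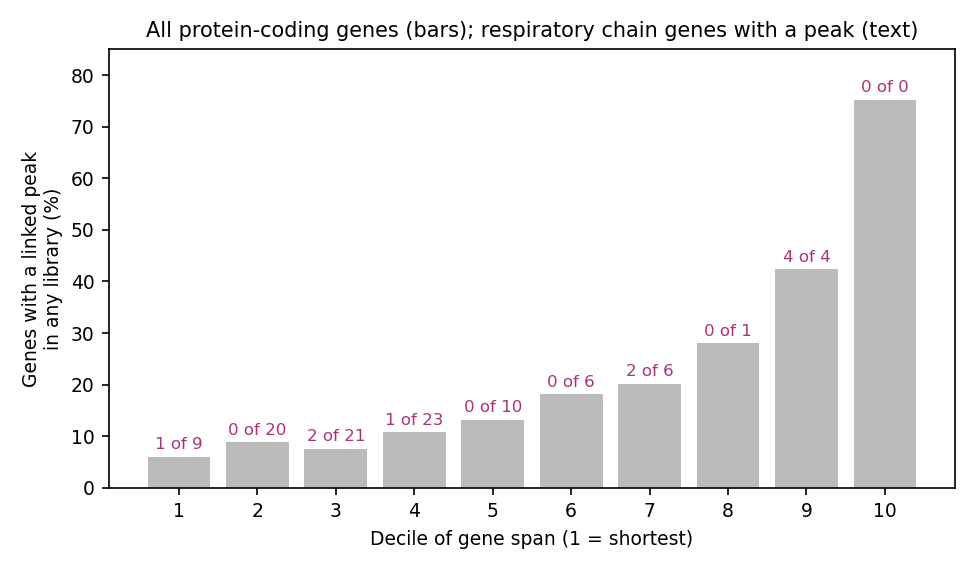
Percentage of all protein-coding genes with a linked peak in any of the 4 libraries (bars), by decile of gene span from shortest to longest; the text above each bar gives the called respiratory chain genes of those in that decile. The share rises from 5.98% in the first decile to 75.1% in the last, and 83 of the 100 respiratory chain genes fall in the first 5 deciles.

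The number of called members differed less between the groups than between the 2 controls. Called members numbered 2, 5, 4 and 4, where 12.5%, 10%, 6.37% and 10.3% of all protein-coding genes were called. Weighted to the members' span deciles, all genes gave 5.54%, 4.27%, 2.55% and 4.35%, which lie inside the members' exact intervals (0.243 to 7.04%, 1.64 to 11.3%, and 1.10 to 9.93% in each knockout). Controls averaged 3.5% ± 2.12 and knockouts 4.0% ± 0 (SD, n = 2 each). An exact permutation test over libraries, two-sided, gave p = 1.0, and 0.333 is the lowest value it can reach with 2 libraries against 2. The libraries of the groups overlapped, both knockouts lying between the controls. Without control 1 the knockout mean was lower by 1.0 percentage point, and without control 2 it was higher by 2.0 points, so that the direction rests on which control is used. In lists of equal length the knockout mean was higher by 2.5 points and the groups did not overlap (exact permutation p = 0.333). With the 88 complex subunits only, the difference was −1.70 points, also without overlap (exact permutation p = 0.333). With gene spans alone it was −0.5 points. Of the 12 assembly factors, 0, 2, 3 and 3 were called, Ndufaf6 and Sdhaf3 being among them in control 2 and in each knockout. A span-weighted share per library is not given for this role, so these counts are a description only.

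**Figure D4:**
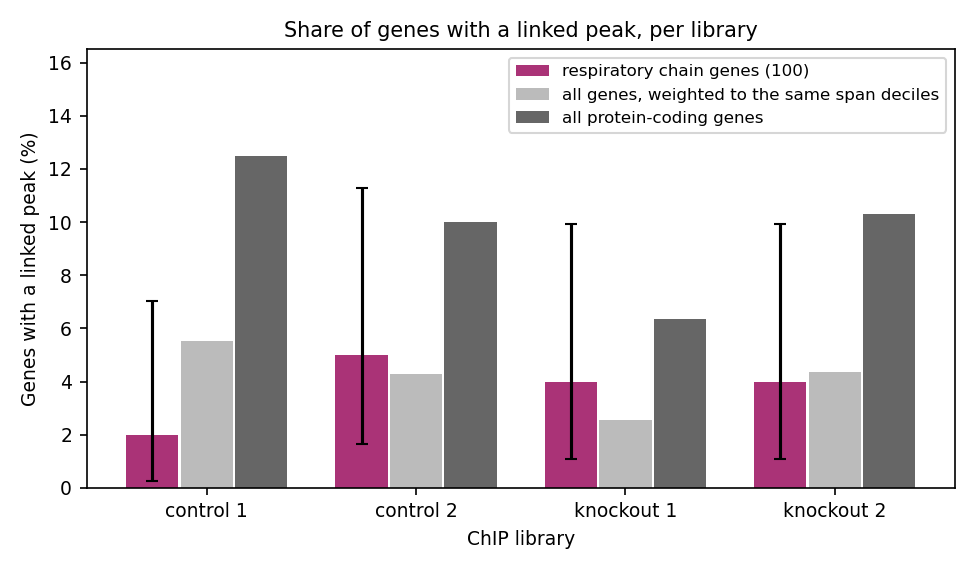
Percentage of genes with a linked peak in each ChIP library, for the 100 respiratory chain genes (95% Clopper-Pearson intervals as error bars), for all protein-coding genes weighted to the same span deciles, and for all protein-coding genes. Respiratory chain genes range from 2.0 to 5.0%, and the span-weighted value lies inside their interval in every library.

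Set against all called genes of the same library, which allows in part for list length, members made up 0.0729, 0.228, 0.287 and 0.177 per 100 called protein-coding genes. Controls averaged 0.150 ± 0.109 and knockouts 0.232 ± 0.0776 (SD, n = 2 each), and the groups overlapped (p = 0.667 by the same exact test). In lists of equal length the difference was 0.186, without overlap of the groups (exact permutation p = 0.333). With complex subunits only it was −0.0467, also without overlap (exact permutation p = 0.333). By position, 3, 5, 5 and 5 summits fell in the 2.30 Mb of member spans with flanks, which is 1.31, 2.18, 2.18 and 2.18 per Mb. All protein-coding spans with flanks held 3.61, 2.53, 1.47 and 2.76 summits per Mb. The exact Poisson intervals of the members' densities, 0.27 to 3.82 per Mb in control 1 and 0.707 to 5.08 in each of the others, include the all-gene value in every library.

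Sharing of calls between libraries was near the background of genes of like span. No member was called in all 4 libraries, where 2.16% of all genes were and 0.461% when weighted to the members' span deciles. Likewise 0 members were called in both controls and neither knockout (1.18% of all genes, 0.519% span-weighted), and 0 in both knockouts and neither control (0.37% of all genes, 0.145% span-weighted). A count of 0 among 100 allows a share of up to 3.0% by the rule of 3 counts, so these classes could not be told from the background at this number of genes. Ndufaf6 and Sdhaf3 were called in 3 libraries, so that 2.0% of members had 3 or more, against 4.79% of all genes and 1.20% span-weighted. With Cox6b2, called in 2 libraries, 3.0% of members had 2 or more, against 9.3% of all genes and 3.11% span-weighted. The other 7 called members had 1 library each. Merging overlapping peaks gave 15 member regions, of which 3 (20.0%) were called in 2 libraries and 0 in more. Over all 28843 merged regions 16.4% were called in 2 or more. Each of the 3 shared regions joined a control with a knockout: control 1 with knockout 2 at Cox6b2, control 2 with knockout 1 at Ndufaf6, and control 2 with knockout 2 at Sdhaf3. Most of the possible library pairs are of this kind, and the share over all merged regions is not given. The pairing is therefore a description and not a trait of these genes.

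The distance to the nearest peak describes the genes without a call as well. Its median over the 100 members was 133, 136, 231 and 118 kb. For all protein-coding genes up to the median span it was 101, 130, 245 and 127 kb. On the log2 scale of distance in bp plus 1, controls averaged 17.04 ± 0.03 and knockouts 17.33 ± 0.68 (SD, n = 2 each), a difference of 0.30 (p = 1.0 by the same exact test). The libraries of the groups overlapped, knockout 2 having the shortest and knockout 1, the shortest list, the longest distances. Without knockout 1 the difference turned to −0.19, and in lists of equal length to −0.012.

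**Figure D5:**
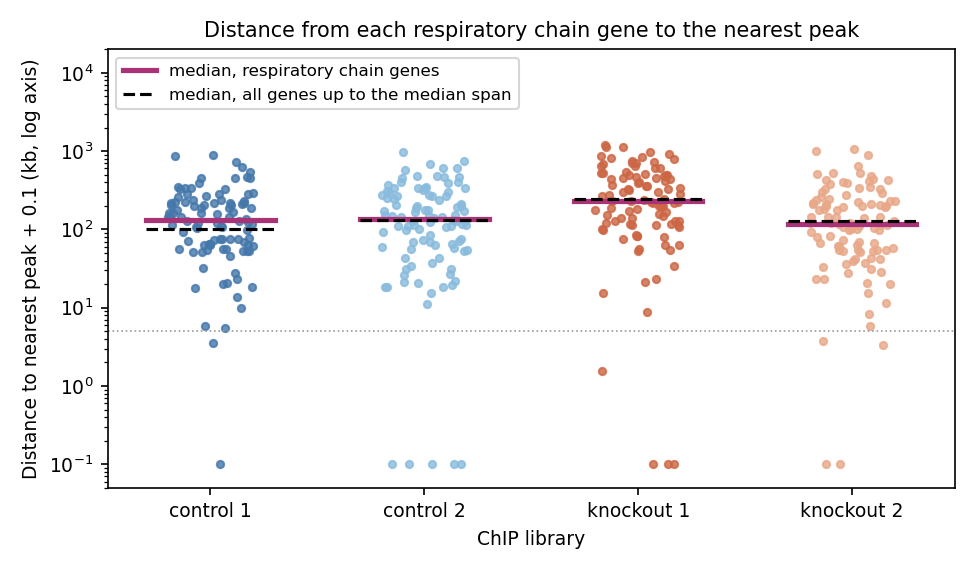
Distance in kb from each of the 100 respiratory chain genes to the nearest peak (log axis, with 0.1 added so that overlapping genes show), by ChIP library; solid lines are the members' medians, dashed lines the medians of all protein-coding genes up to the median span, and the dotted line the 5 kb limit. Medians run from 118 to 231 kb.

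No promoter window of these genes held a call. RefSeq windows from 250 bases before to 50 after the start were matched for 82 of the 100 members, and 0 of them overlapped a peak of any list, which allows a share of up to 3.66%. Over all protein-coding genes with a window, 41 of 17492 (0.234%) overlapped a peak. All 4 flank peaks lay upstream of a start, at Ndufs5, Ndufaf4 and Cox6b2. The 250 bases just upstream of these starts are shown as the promoter sequence nearest to the calls; they are not the called sequence. They lie at chr4:123718187-123718436 on the minus strand (Ndufs5), chr4:24897833-24898082 on the plus strand (Ndufaf4) and chr7:4753095-4753344 on the minus strand (Cox6b2), in GRCm38.p6, from RefSeq. Capitals mark matches to the core of nuclear respiratory factor 1, a regulator of many respiratory chain genes, searched as GCATGCG on both strands.
Ndufs5: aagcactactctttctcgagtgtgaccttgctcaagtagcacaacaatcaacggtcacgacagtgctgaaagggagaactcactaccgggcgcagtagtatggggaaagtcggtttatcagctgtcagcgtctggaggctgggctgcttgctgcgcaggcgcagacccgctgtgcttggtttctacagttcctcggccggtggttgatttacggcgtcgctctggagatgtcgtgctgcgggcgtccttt
Ndufaf4: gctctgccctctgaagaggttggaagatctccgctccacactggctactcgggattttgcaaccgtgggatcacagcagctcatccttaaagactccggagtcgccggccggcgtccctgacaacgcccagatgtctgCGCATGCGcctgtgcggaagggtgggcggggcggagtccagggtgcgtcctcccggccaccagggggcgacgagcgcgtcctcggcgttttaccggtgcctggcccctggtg
Cox6b2: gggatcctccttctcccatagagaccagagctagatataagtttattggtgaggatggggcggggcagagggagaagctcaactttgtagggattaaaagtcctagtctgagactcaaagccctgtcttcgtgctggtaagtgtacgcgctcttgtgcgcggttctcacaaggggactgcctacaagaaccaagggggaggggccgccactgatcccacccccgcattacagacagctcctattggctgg

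The Ndufaf4 stretch held 23 CG dinucleotides and the match on both strands, overlapping each other. The Ndufs5 stretch held 18 and the Cox6b2 stretch 8, without these letters. Over the full 300-base windows, using the outermost start of each gene, the letters stood in 12 of 82 members (14.6%) and in 4.50% of all protein-coding genes. The core of GABP, an ETS-family factor also known as nuclear respiratory factor 2, searched as CCGGAAG on both strands, stood in 21 of 82 (25.6%) and in 11.9% of all. Median GC content was 58.5% in members and 56.3% in all genes, with a median of 20 and 13 CG dinucleotides. A match is a description of letters and not a bound site, and no list had a peak in any of the members' windows.

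A fixed list of 45 other genes of oxidative phosphorylation, mostly assembly factors and electron carriers outside the symbol rule, had calls at 10 genes (22.2%), beside 19.1% in all genes of the same span deciles. The counts per library were 5, 6, 4 and 3. Cmc2, a factor of cytochrome c oxidase biogenesis, was called in all 4 libraries. Its relative Cmc1 was called in both controls and knockout 2, and Nubpl, which inserts iron-sulfur clusters into complex I, in both controls and knockout 1. Uqcc1, an assembly factor of complex III, was called in control 2 and knockout 1. The other 6 called genes (Coa5, Coa7, Acad9, Lyrm7, Cox16 and Lrpprc) were called in 1 library each, and neither Cycs, the gene of the electron carrier cytochrome c, nor Cyc1, that of cytochrome c1 of complex III, was called in any.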

How the data were processed

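The data are 4 peak lists, 1 per H3R17me2a ChIP library (2 control, 2 knockout). Per the submitters' processing notes, Bowtie2, MACS2, FastQC, MultiQC and DiffBind were used with build mm10; the sources used here give no settings, and the lists are kept per library. The inputs have no lists to analyse. The authors deposited, for each peak, a fold enrichment (the ratio of summit to local background) and its −log10 p and −log10 q. Summit fragments were recovered by solving fold, with 1 fragment added to each side, and the Poisson p together (tolerance 0.001 in −log10 p; whole numbers for 99.3% to 99.7% of peaks). Genes are RefSeq spans; a peak was linked within 5 kb, and regions merged at 1 bp overlap. Distances, counts and shares were computed with Python 3.11.15, NumPy 2.4.6, SciPy 1.17.1 and pandas 2.3.3, and functions were tested on simulated data. Groups were compared by exact two-sided permutation over libraries. Span deciles of all 21887 genes gave the background. Members and lists were chosen with earlier results of these data known. Named were called members and genes of other lists called in 2 or more libraries. Alternatives were stricter peaks, other links, equal lists, autosomes, subunits only, 50% reciprocal overlap, each library left out and a replicate block. Chromatin was cut with MNase, whose effect on the lists was not tested. The calls of a gene of the fixed lists are not reported here.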

Additional observations from a re-analysis of the deposited data

How the results depend on the processing

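The exact permutation test used here cannot pass a threshold with 2 libraries against 2, so directions and counts are compared. The difference in the share of called members (knockout minus control) was 0.5 percentage points. In lists of equal length it was 2.5, and with complex subunits only it was −1.70. In both settings the groups did not overlap, in opposite directions (exact permutation p = 0.333 each, the smallest possible). The difference was 1.5 with −log10 q of at least 5, −0.5 with gene spans alone and 0 with 2 kb flanks. With a library left out it ran from −1.0 to 2.0. Members per 100 called genes (difference 0.0818) gave 0.186 in lists of equal length and 0.227 with the stricter q. With subunits only they gave −0.0467, the knockouts lying lower. In each of these settings the groups did not overlap (exact permutation p = 0.333 each). With a library left out the difference was 0.0045 to 0.159. The difference in log2 distance (0.30) was −0.012 in lists of equal length and −0.19 to 0.78 with a library left out. Called members (10) fell to 3 with −log10 q of at least 5, to 6 in lists of equal length and to 6 with subunits only. They fell to 7 to 9 with a library left out. By linking distance they numbered 7 with gene spans alone, 8 with 2 kb flanks and 13 with 10 kb flanks. Regions in 2 or more libraries (3) numbered 1 with the stricter q of 5, 1 in equal lists and 1 with subunits only. There was 1 with 50% reciprocal overlap, at Sdhaf3, and 1 to 2 with a library left out. Such regions numbered 2 with gene spans alone, 2 with 2 kb flanks and 4 with 10 kb flanks. Members in both controls and neither knockout (0) became 1 with 10 kb flanks (Ndufs4). With a control left out, the class became the remaining control and neither knockout. It then held 3 members without control 1 and 1 without control 2. With knockout 1 or knockout 2 left out, the class was both controls and not the remaining knockout, and held 0. With the replicate block, pairing libraries by number, the differences were the same (0.5 points, 0.0818 and 0.30). The exact sign-flip p was 1.0 each, 0.5 being the smallest possible. The pairing correlation was r = −0.005 over the 5033 genes called in any library. Those genes were chosen by the same calls, so this value cannot show whether the numbers pair the libraries. The cause of these changes was not tested. Member peaks rested on a median of 7 fragments.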

Other observations

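Calls at other mitochondrial programmes were counted in the same way. Of 19 regulators of mitochondrial biogenesis, 6 were called in any library (31.6%, beside 31.8% of all genes of the same span deciles). Ppargc1a, the coactivator PGC-1 alpha, was called in control 1 and knockout 2, its relative Ppargc1b in control 1 and knockout 1, and the orphan nuclear receptor gene Esrrb in control 2 and knockout 2. Nrf1, Ppara and Esrrg were called in control 2 alone, and Tfam, which packages and transcribes mitochondrial DNA, in none. Of 21 genes of the tricarboxylic acid cycle and pyruvate dehydrogenase, 3 were called (14.3%, beside 21.5%). Suclg2, a subunit of succinyl-CoA ligase, was called in all 4 libraries, and Fh1, which encodes fumarate hydratase, in control 1. Of 13 genes of coenzyme Q synthesis, 3 were called (23.1%, beside 21.6%), of which Pdss2 was called in control 1 and knockout 2, Coq3 in control 1 and Coq8a in control 2.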
